A study of Homo sapiens with 4 samples.

Results

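The aryl hydrocarbon receptor (AHR) pathway was examined in U937 cells through 7 genes. These were AHR itself, its DNA-binding partner ARNT, the repressor AHRR, and 4 genes known as targets of the receptor, namely CYP1A1, CYP1B1, TIPARP and NQO1. Rows were selected by Ensembl identifier, and 6 of the 7 genes were found among 17656 genes of the table, while CYP1B1 was not analysed here. The 7 genes were proposed with the difference between these groups already in view. Their levels are therefore given as a description, with no p-value. Tests are given for other genes of the pathway, whose lists were also drawn up with earlier results of these data known, so their counts are not independent evidence. A gene is said to rise or fall where its limma adjusted p was under 0.05 and its log2 fold change was beyond 0.5 in size.

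All 6 genes had higher levels in the libraries labelled sh-ZNF217 than in the controls. CYP1A1 differed most, at a mean of 15.02 TPM in NC and 76.5 TPM in the other group, a ratio of 5.09. AHR, AHRR and TIPARP had ratios of 1.95, 2.11 and 1.94. NQO1 had a ratio of 1.69, and ARNT differed least, at 1.18. TPM is a length-corrected unit, a gene's share of the transcripts of a library with its length divided out, so levels of different genes can be set side by side. The table names no unit, and the reading as TPM rests on its values. MT-ND4L and MT-ND4 share 1 transcript and differ in length (297 and 1378 bases), and the value of the first was 1.01 to 1.11 times that of the second, where a measure without length would give about 0.215.

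AHR is a transcription factor of the bHLH-PAS family that waits in the cytoplasm, bound to HSP90 and its cochaperones, until it binds a ligand such as a dioxin, a polycyclic aromatic hydrocarbon or a product of tryptophan breakdown. It then enters the nucleus, pairs with ARNT and binds short DNA elements with the core GCGTG. Targets include CYP1A1, whose enzyme oxidizes and clears many ligands, AHRR, which competes with the receptor for ARNT, and TIPARP, which modifies the receptor with ADP-ribose and limits its activity. In monocytes and macrophages the pathway is known for shaping cytokine output and differentiation.

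U937 is an established monocytic cell line derived from a human leukemia. RNA was sequenced from 4 libraries, 2 of a control group, NC, labelled as having no treatment, and 2 of a group called sh-ZNF217, labelled as a knockdown of the zinc finger protein ZNF217. The study's methods describe a lentiviral hairpin vector and also a genome-edited knockout in this line, and its text calls these RNA data a knockout, so how the group was made is not settled. The comparison asks which transcripts differ between the group labelled as a ZNF217 knockdown and its control. The labels do not say that libraries came from separate cultures, so p-values measure only the spread between these samples. That spread may be technical.

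The targeted transcript differed little between the groups. ZNF217 stood at 36.1 and 36.7 TPM in NC and at 35.8 and 35.0 TPM in the sh-ZNF217-labelled libraries (log2 fold change -0.04, limma adjusted p = 0.74). Each direction below rests on the label alone. Library totals ran from 998932 to 999282 TPM, and TPM keeps no read depth, so no counting error could be given. Mitochondrially encoded genes took 9.98% and 10.8% of the total in NC and 12.5% and 12.7% in the other group. Markers of the myeloid lineage were present, with SPI1 at 316 to 356 TPM and LYZ at 3256 to 5511 TPM in the 4 libraries, while MPO (0.0854 to 0.513 TPM) and CD14 (0.76 to 2.79 TPM) were near 0. Of 11 tested monocytic markers 6 rose, among them ITGAM and CSF1R, beside 6.26% of all tested genes. The summed level of the list went from 4521 to 4523 TPM in NC to 6906 to 6990 TPM. LYZ made up most of this sum, with means of 3263 and 5419 TPM. CEBPA was lower, with means of 277 and 240 TPM, and CD33 overlapped between the groups. The part of the marker shift in the values below was not tested. Markers of erythroid, epithelial and fibroblast cells were not analysed here. Of 8 T and NK cell markers 3 had values, with a sum of 27.7 to 33.0 TPM in NC and 40.4 to 43.6 TPM in the other group, and CD2 rose. Of 5 B cell markers 3 had values, with sums of 5.51 to 10.7 and 4.45 to 7.06 TPM, and PAX5 fell. In a bulk sample, more cells with a transcript and more transcript per cell cannot be told apart.

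The sequences that AHR and its partner recognise were read from the hg38 genome in the 1000 bases upstream of the start site of each gene's canonical transcript in GENCODE 44, on both strands. For AHRR that start is the first base of the annotated gene. For AHR (17298652), TIPARP (156674590), ARNT (150876599), NQO1 (69726560) and CYP1A1 (74725528) it lies inside the annotated gene, furthest for AHR and TIPARP. Other transcripts of these genes begin further upstream, and the windows of those starts were not searched. CYP1A1 held 5 copies of the core GCGTG and 3 of the longer form TNGCGTG. Of 10896 tested protein-coding genes, 80.6% held the core, while 21.7% held the longer form and 99.8% held fewer copies of it than CYP1A1. The 3 CYP1A1 sites that match the longer form are shown with the core in capitals, on the strand that carries it (plus), with the distance of the core from the start site in the name.
CYP1A1 at -986, chr15:74726500-74726524: cccaggcgttGCGTGagaaggaccg
CYP1A1 at -898, chr15:74726412-74726436: cggctagcttGCGTGcgccggcgac
CYP1A1 at -503, chr15:74726017-74726041: gtcccggctcGCGTGagaagcgctg

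The sites at -986 and -898 lie within the 300 bases of the upstream region that begin 1000 bases before the start site. This stretch (chr15:74726229-74726528, minus strand, hg38) is printed in the direction of the gene, with the core in capitals as its complement CACGC, to show how the elements sit in their surroundings.
CYP1A1 upstream region: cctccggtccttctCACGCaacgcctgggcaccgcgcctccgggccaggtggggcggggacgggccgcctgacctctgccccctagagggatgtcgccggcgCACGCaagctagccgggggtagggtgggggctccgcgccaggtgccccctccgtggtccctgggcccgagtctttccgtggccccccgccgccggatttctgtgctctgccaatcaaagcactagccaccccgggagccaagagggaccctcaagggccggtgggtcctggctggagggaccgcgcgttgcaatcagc

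The other genes differed in what these windows held. AHRR had 3 cores, of which the one 30 bases before the start site also matched TNGCGTG. TIPARP had 6 cores, more than 95.8% of genes, and 0 of the longer form. ARNT had 2 cores and 1 match to the longer form, NQO1 had 2 cores and 0 of the longer form, and the AHR window held 0 cores. NQO1 is also a target of NRF2, a factor that binds antioxidant response elements, and its window held 1 match to TGACNNNGC, at -455 from the start site. That motif was present in 34% of genes, and ARNT held 1 match as well. A match is a description of the letters and not a bound site, and a window without one says nothing about the factor elsewhere. The AHRR site, the TIPARP core nearest to its start site and the NQO1 match are shown, with the matched letters in capitals.
AHRR at -30, chr5:321674-321698, plus strand: cgggcggctcGCGTGccggggtggg
TIPARP at -142, chr3:156674438-156674462, minus strand: ccctgcgcgcGCGTGcgcgttcgtt
NQO1 at -455, chr16:69726997-69727025, minus strand: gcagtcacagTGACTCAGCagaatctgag

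**Figure D1:**
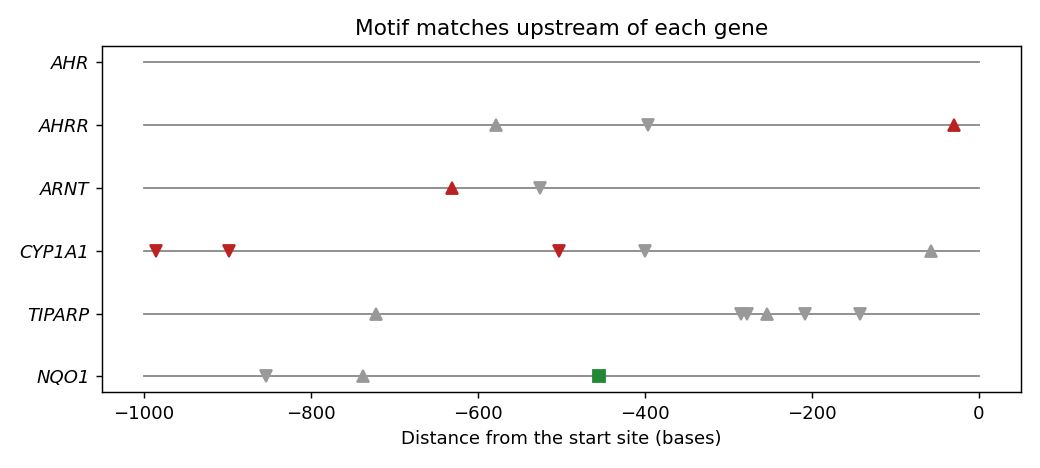
Positions of motif matches in the 1000 bases upstream of each start site (horizontal axis, bases, with the start site at 0), one line per gene. Triangles mark the core GCGTG, pointing up on the gene's strand and down on the other, in red where the longer form TNGCGTG also matches, and the green square marks TGACNNNGC in NQO1 (the match in ARNT is not drawn). CYP1A1 carries 3 red triangles, AHRR and ARNT 1 each, and AHR none.

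The receptor and its partner were considered first. AHR (ENSG00000106546) lies on chromosome 7 (16916359 to 17346152, plus strand, hg38). Its level was 9.99 and 11.2 TPM in NC and 20.6 and 20.8 TPM in the sh-ZNF217-labelled libraries. Both of the latter were above both controls, by 1.84 to 2.08 times over the 4 pairs of libraries, and the log2 difference of TPM + 1 was 0.91. The means were 10.6 ± 0.83 and 20.7 ± 0.153 TPM (SD, n = 2 each). AHR shares exon sequence with 1 gene on each strand (ENSG00000283321 and ENSG00000237773), and whether strand was used in counting is not given in the sources used here. ENSG00000237773 was at 0.022 to 0.952 TPM with overlapping groups, and ENSG00000283321 was not analysed here.

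ARNT (ENSG00000143437, chromosome 1, 150809713 to 150876708, minus strand) is the partner without which AHR does not bind DNA, and it serves HIF1A in the same way. It was at 33.9 and 34.8 TPM in NC and at 41.9 and 38.9 TPM in the other group. The groups did not overlap, but the log2 difference of 0.23 was small against the other members, and the means were 34.4 ± 0.632 and 40.4 ± 2.12 TPM (SD, n = 2 each). The ratio of ARNT to AHR was thus 3.40 and 3.12 in NC and 2.04 and 1.87 in the libraries labelled sh-ZNF217. ARNT was above AHR in every library.

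AHRR (ENSG00000063438, chromosome 5, 321714 to 438291, plus strand) encodes the repressor that resembles AHR but lacks its activating region. It was the most abundant of the 6 genes, at 149.9 and 179 TPM in NC and 307 and 386 TPM in the other group. Its NC level was above that of 93.2% of tested genes, against 40.0% for AHR. The libraries of the sh-ZNF217 group differed from each other by 0.33 on the log2 scale, more than 89.8% of tested genes with a mean of at least 5 TPM. The log2 difference between groups was 1.07, and pairs of libraries differed by 1.72 to 2.57 times. The means were 164 ± 20.5 and 346 ± 55.7 TPM (SD, n = 2 each). AHRR was 15.01 and 16.03 times as abundant as AHR in NC and 14.9 and 18.6 times in the other group, ranges that overlap.

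A readthrough gene, PDCD6-AHRR, shares 5561 of the 9480 exon bases of AHRR and was not analysed here, so part of the AHRR value could belong to it. PDCD6, which supplies the upstream part of that transcript, went from 88.4 and 96.3 TPM to 79.5 and 80.7 TPM (log2 fold change -0.20, limma adjusted p = 0.0951) and did not pass. Both of its sh-ZNF217 values were below both controls. The level of PDCD6 is not that of the readthrough gene, whose part in the AHRR value was not tested. A processed pseudogene inside AHRR on the same strand, ENSG00000250645, was at 4.54 and 8.64 TPM in NC and 11.8 and 16.5 TPM in the other group, and its difference missed the threshold (log2 fold change 1.03, limma adjusted p = 0.0679). These genes were chosen for their position after the AHRR values were seen.

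CYP1A1 (ENSG00000140465, chromosome 15, 74719542 to 74725536, minus strand) encodes the cytochrome P450 that is the classical readout of AHR activity. Its level was 14.8 and 15.3 TPM in NC and 75.0 and 78.0 TPM in the sh-ZNF217-labelled libraries. Each library of the second group was 4.91 to 5.28 times each control, and libraries of a group differed by at most 0.06 on the log2 scale. The means were 15.02 ± 0.351 and 76.5 ± 2.11 TPM (SD, n = 2 each), a log2 difference of 2.27. GENCODE 44 lists no exon of another gene over it. Its close relative CYP1A2 was not analysed here, so reads that fit both could not be examined.

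TIPARP (ENSG00000163659, chromosome 3, 156673235 to 156706770, plus strand) encodes the enzyme also named PARP7. It was at 13.8 and 13.0 TPM in NC and at 26.9 and 25.2 TPM in the other group, 1.83 to 2.07 times over the pairs. The means were 13.4 ± 0.539 and 26.1 ± 1.20 TPM (SD, n = 2 each), and the log2 difference of 0.91 was the same as that of AHR to 2 decimals. Relative to AHR it was at 1.38 and 1.17 in NC and at 1.31 and 1.21 in the other group, values that overlap.

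NQO1 (ENSG00000181019, chromosome 16, 69706996 to 69726668, minus strand) encodes a quinone reductase under the control of both AHR and NRF2. It was at 60.7 and 57.7 TPM in NC and at 107 and 92.5 TPM in the sh-ZNF217-labelled libraries, 1.52 to 1.86 times over the pairs. The means were 59.2 ± 2.11 and 99.9 ± 10.4 TPM (SD, n = 2 each; log2 difference 0.74). It shares 575 exon bases with ENSG00000261602 on the other strand.

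**Figure D2:**
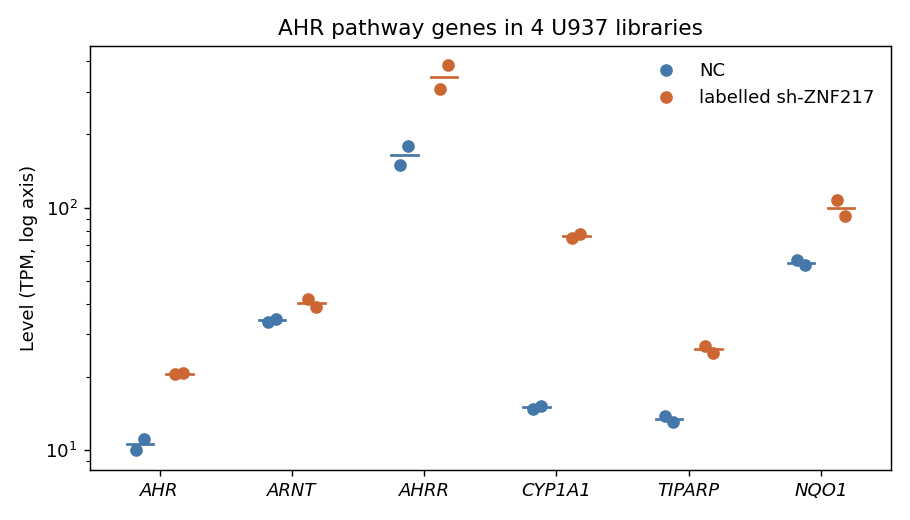
Level in TPM (log axis) of the 6 genes, showing each library as a point and each group's mean as a line, NC in blue and the libraries labelled sh-ZNF217 in orange. CYP1A1 goes from a mean of 15.02 to 76.5 TPM, whereas ARNT goes from 34.4 to 40.4 TPM.

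The order of levels differed between the groups at 1 place. In NC it was AHRR, NQO1, ARNT, CYP1A1, TIPARP and AHR, and in the libraries labelled sh-ZNF217 CYP1A1 passed ARNT to rank behind NQO1. Neighbours in either order did not overlap between libraries, although CYP1A1 and TIPARP in NC stood only 1.62 TPM apart (larger SD 0.539). With AHR of the same library as the unit, CYP1A1 was at 1.48 and 1.37 in NC and at 3.65 and 3.75 in the other group, while the values of AHRR, TIPARP and NQO1 overlapped between the groups.

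**Figure D3:**
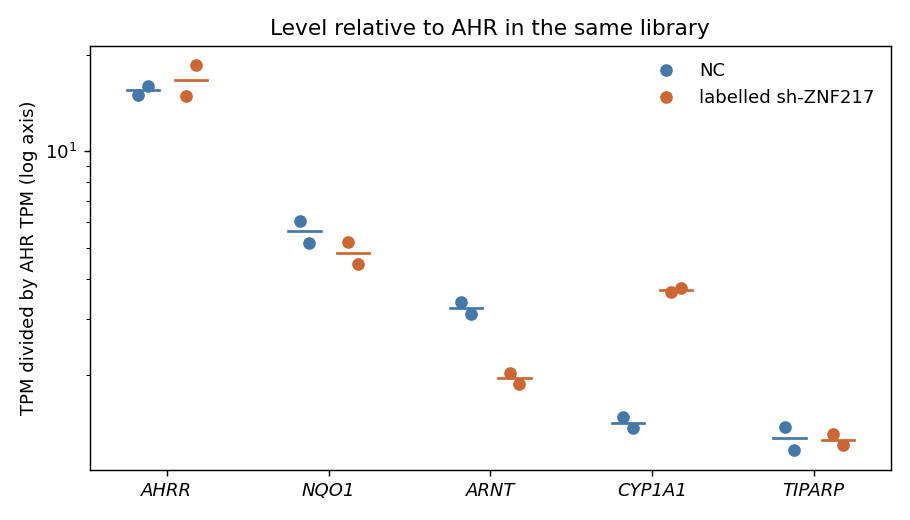
TPM of 5 genes divided by the TPM of AHR in the same library (log axis), showing each library as a point and each group's mean as a line. CYP1A1 moves from 1.48 and 1.37 in NC to 3.65 and 3.75, ARNT moves down from 3.40 and 3.12 to 2.04 and 1.87, and the other 3 overlap.

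By the rule for calls 5 of the 6 members counted as higher and ARNT, at a log2 difference of 0.23, did not, beside 6.26% of 14582 tested genes called higher and 8.72% called in either direction. The groups did not overlap for all 6, beside 33.5% of tested genes that were higher without overlap, 28.6% that were lower without overlap, and 62.2% in either direction. As the members were chosen on this contrast, nothing is read from these counts.

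Genes that handle the receptor protein were next. Of 11 tested genes of AHR chaperones and turnover, 0 rose and 1 fell, beside 6.26% and 2.46% of tested genes, and their median log2 fold change was -0.18 against 0.02 over all genes. STUB1, also named CHIP, a ubiquitin ligase that can mark AHR for degradation, went from 108 and 92.1 TPM to 66.8 and 70.5 TPM (log2 fold change -0.53, SE 0.0895, limma adjusted p = 0.0188). This call was lost when sh-ZNF217 replicate 1 or 2 was left out (adjusted p = 0.0902 and 0.0704), and the value fell short of the minimum without NC replicate 1 (-0.42) or mitochondrially encoded genes (-0.49). HSP90AB1, the HSP90 form that is always made, was lower by log2 -0.26 (limma adjusted p = 0.0176), short of the fold minimum. STUB1 shares 985 exon bases with JMJD8 on the other strand.

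Of the relatives of AHR and ARNT in the bHLH-PAS family, 6 were tested and 0 were called, beside 8.72% of all tested genes. Their median log2 fold change was 0.21 against 0.02 over all genes. The number called higher was 1 with a minimum of 5 TPM and 1 when protein-coding genes were kept alone. HIF1A, the hypoxia factor that also pairs with ARNT, was at 41.5 and 42.7 TPM in NC and 47.7 and 46.8 TPM in the other group (log2 fold change 0.16, 95% interval -0.0034 to 0.329, limma adjusted p = 0.152).

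Among 18 tested coregulators and partners 3 rose and 0 fell, beside 6.26% and 2.46% of all tested genes. Their median log2 fold change was 0.16 against 0.02. KLF6, a zinc finger factor that can pair with AHR at a nonclassical DNA element, rose from 39.8 and 39.3 TPM to 64.7 and 59.0 TPM (log2 fold change 0.63, limma adjusted p = 0.00829). NCOA3, a steroid receptor coactivator, rose from 11.8 and 11.1 TPM to 17.4 and 18.6 TPM (log2 fold change 0.61, limma adjusted p = 0.0199). NCOA7, another nuclear receptor coactivator, rose from 12.2 and 12.96 TPM to 18.2 and 19.8 TPM (limma adjusted p = 0.0247). The count was 2 without NC replicate 1 and 1 without any of the other libraries, the adjusted p of NCOA7 was 0.0532 to 0.104 with any library left out, and NCOA3 lost its call without NC replicate 2 (0.0596), sh-ZNF217 replicate 1 (0.0749) and sh-ZNF217 replicate 2 (0.0891). RELB, an NF-kB subunit that can bind AHR, was at 24.7 and 24.6 TPM in NC and 26.8 and 34.1 TPM in the other group (log2 fold change 0.28, limma adjusted p = 0.179) and did not pass.

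Of 32 further genes described as AHR targets in other cells, 17 had values and 14 were tested. Among these 6 rose and 0 fell, beside 6.26% and 2.46% of all tested genes, while the median log2 fold change was 0.17 against 0.02. CD36, a scavenger receptor for oxidized lipids that was already known to differ here when the list was made, stood at 14.6 and 13.5 TPM in NC and at 142 and 139.7 TPM in the other group (log2 fold change 3.23, limma adjusted p = 0.000306). IL1B, an inflammatory cytokine, rose from 6.48 and 6.55 TPM to 38.0 and 46.8 TPM (log2 fold change 2.52, limma adjusted p = 0.00122). SERPINB2, an inhibitor of plasminogen activators, rose from 829 and 888 TPM to 1393 and 1339 TPM. CDKN1A, the cell cycle inhibitor p21, rose from 39.9 and 41.8 TPM to 73.7 and 77.2 TPM, and it overlaps the antisense gene DINOL. Both had limma adjusted p values below 0.05 (0.00328 and 0.00324). IER3, an early response gene, and PTGS2, the inducible cyclooxygenase, rose from low levels, and each shares exon sequence with an antisense gene. IER3 went from 2.19 and 2.22 TPM to 5.13 and 5.43 TPM, and PTGS2 from 0.724 and 1.07 TPM to 3.32 and 2.57 TPM. These last calls were lost with any library left out (adjusted p of 0.0608 to 0.0962 for IER3 and 0.0684 to 0.161 for PTGS2), which left 4 of the 6.

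Ligands of AHR can be made from tryptophan, and 12 genes of that route were tested. Of these 2 rose and 0 fell, beside 6.26% and 2.46% of all tested genes. Of the 12, 6 were below 0, and the median log2 fold change was 0.19 against 0.02. KYNU, which cleaves kynurenines, had 10.7 and 5.82 TPM in NC and 31.0 and 17.5 TPM in the other group (log2 fold change 1.45, SE 0.346, limma adjusted p = 0.0442). Its replicates were far apart, with replicate 1 the higher in both groups. The call was lost with any library left out (log2 fold change 1.05 to 1.84). It was kept with a replicate block (limma adjusted p = 0.0107), although replicate numbers did not pair the samples over all genes. KMO, which hydroxylates kynurenine, rose from 1.62 and 2.08 TPM to 5.23 and 7.54 TPM (limma adjusted p = 0.0195), and it was lost without NC replicate 1 (0.0509) and without either library labelled sh-ZNF217 (0.0528 and 0.0841). Both enzymes use kynurenine or its products. IL4I1, an amino acid oxidase whose products can activate AHR, was at 27.2 and 21.2 TPM against 31.1 and 36.2 TPM (limma adjusted p = 0.0799) and passed only without NC replicate 1 (0.0391). KMO shares 1691 exon bases with OPN3 on the other strand and IL4I1 shares 336 with NUP62 on its own strand, so the division of reads is uncertain. SLC7A5, a transporter of tryptophan and kynurenine that is also among the further targets, was at 157 and 152 TPM in NC and 109 and 114 TPM in the other group. Its log2 fold change of -0.47 (limma adjusted p = 0.00864) missed the fold minimum, and it was called lower with median-of-ratios scaling (-0.50) and without sh-ZNF217 replicate 2 (-0.51). SLC3A2, also on this list, differed in the direction opposite to SLC7A5. NC libraries held 144 and 138 TPM of it, against 189 and 198 TPM for those labelled sh-ZNF217. The log2 fold change of SLC3A2 was 0.45 (limma adjusted p = 0.0097), also short of the minimum. IDO1, which opens the route, was not analysed here. TDO2, another gene of the route, was at 0.257 and 0.899 TPM in NC and at 1.98 and 3.17 TPM in the other group. Its difference missed the threshold (log2 fold change 1.19, limma adjusted p = 0.0602).

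TIPARP belongs to the PARP family, of which 15 other genes were tested. Of these 1 rose and 0 fell, beside 6.26% and 2.46% of all tested genes, with a median log2 fold change of 0.19 against 0.02. PARP14, a mono-ADP-ribosyltransferase, rose from 10.1 and 10.3 TPM to 18.6 and 16.2 TPM (log2 fold change 0.72, limma adjusted p = 0.0171), a call lost without either library labelled sh-ZNF217 (0.0814 and 0.0561).

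The NRF2 pathway shares NQO1 with AHR. Of 26 tested genes 9 rose and 0 fell, beside 6.26% and 2.46% of all tested genes, and the median log2 fold change was 0.38 against 0.02. SLC7A11, the cystine transporter, rose from 11.4 and 12.2 TPM to 53.9 and 55.1 TPM (log2 fold change 2.12, limma adjusted p = 0.00068), and it overlaps SLC7A11-AS1. TXNRD1, a thioredoxin reductase, rose from 204 and 209 TPM to 365 and 348 TPM (log2 fold change 0.79, limma adjusted p = 0.00222). HMOX1, which degrades heme, rose from 42.5 and 37.9 TPM to 72.0 and 80.3 TPM (log2 fold change 0.91, limma adjusted p = 0.0057). GCLC, which starts glutathione synthesis, and OSGIN1, an oxidative stress gene, rose by log2 fold changes of 0.72 and 1.22 (limma adjusted p = 0.00421 and 0.00568), and each shares exon sequence with another gene. NFE2L2, the NRF2 transcript itself, was at 107 and 119.7 TPM in NC and 139 and 134 TPM in the other group (log2 fold change 0.27, limma adjusted p = 0.0563), with 3509 exon bases shared with HNRNPA3 on the other strand, and KEAP1, the adaptor that leads NRF2 to degradation, overlapped between the groups (adjusted p = 0.441). Between 7 and 10 genes of the list rose with 1 library left out.

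Of 10 tested other cytochrome P450 genes and reductases 2 rose and 0 fell, beside 6.26% and 2.46% of all tested genes. Their median log2 fold change was 0.27 against 0.02. TBXAS1, thromboxane synthase, rose from 59.1 and 58.6 TPM to 98.7 and 104 TPM (log2 fold change 0.77, limma adjusted p = 0.00328). CYP2R1, a vitamin D hydroxylase, rose from 26.9 and 22.1 TPM to 41.9 and 40.7 TPM (limma adjusted p = 0.0136), and its call was lost when sh-ZNF217 replicate 1 or 2 was left out (0.0751 and 0.0674). POR, which passes electrons to CYP1A1, was at 33.7 and 36.1 TPM against 43.3 and 50.7 TPM, and its log2 fold change of 0.41 missed the minimum. The log2 fold changes of the 10 tested genes of this list ran from -0.68 to 0.77, and 4 of them were below 0. CYP1A1 was chosen on this contrast, so it is not ranked against the genes of this list.

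**Figure D4:**
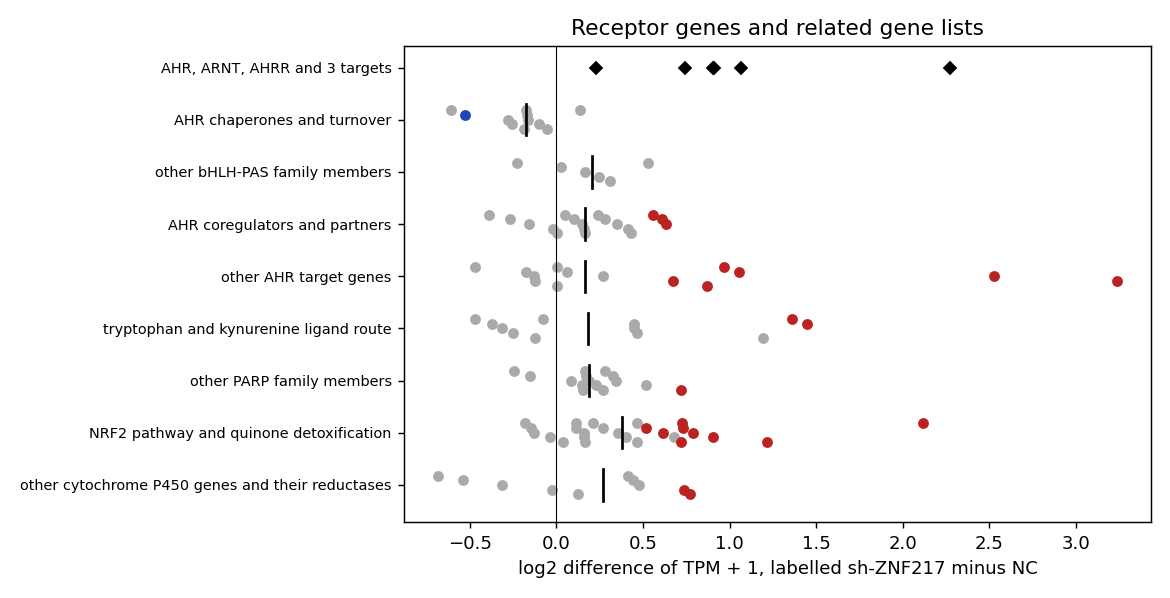
Difference of mean log2(TPM + 1), libraries labelled sh-ZNF217 minus NC, for the members (black diamonds) and the tested genes of each list (points; red, called higher; blue, called lower; grey, not called), with a bar at the list median. The NRF2 list has a median of 0.38 and the chaperone list -0.18, with STUB1 the only blue point.

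The genes whose profile over the 4 libraries was most like that of AHR were ADGRE1, CES1, LINC00847, TNFAIP3 and CDKN1A. Likeness was the Euclidean distance between log2(TPM + 1) profiles, each centred on its own mean, over 9993 candidates. ADGRE1, an adhesion receptor of myeloid cells, was nearest at 0.045, with 4.61 and 4.99 TPM in NC and 10.04 and 9.91 TPM in the other group. For CYP1A1 they were PTPRZ1, ADAMDEC1, CD86, SLC7A11 and SUGCT-AS1, at distances of 0.089 to 0.173. ADAMDEC1, a metalloprotease of macrophages, had 31.3 and 30.3 TPM in NC and 159 and 153 TPM in the other group. With 4 libraries in 2 groups, the distance mostly reflects the size of the group difference.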

How the data were processed

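RNA-seq of 2 NC and 2 sh-ZNF217 libraries of U937 cells was analysed. Reads were aligned by the authors with HISAT2 2.0.5 to hg38, per the submitters' processing notes. Quantifier, annotation, strand setting and depth were not stated in those sources. The deposited table names no unit, and the methods name fragments scaled by library size. It was read as TPM from its values, since columns sum to 998932 to 999282, short genes that share a transcript with a longer one have similar values (MT-ATP8 at 0.872 to 0.905 times MT-ATP6, at a length ratio of 0.304), and the median level did not increase with exon length (32.1 among the 2726 shortest and 22.0 among the 2722 longest protein-coding genes). The authors tested with DESeq2 and a log2 minimum of 0.5. That count test could not be used on TPM. Column names give the group as NC or ZNF, with other parts unexplained.

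Symbols, exons and start sites came from GENCODE 44 on hg38, which held 16143 of 17656 identifiers. Genes reaching 1 TPM in a minimum of 2 libraries (14582, leaving out 3074) entered a limma 3.58.1 model (R 4.3.3) on log2(TPM + 1), group alone, with trended and robust empirical Bayes and Benjamini-Hochberg adjustment. Fold changes on this scale understate those of low genes. Calls needed a log2 fold change beyond 0.5 in size and an adjusted p under 0.05. Procedures were tested on simulated data. Python 3.11.15, pandas 2.3.3 and matplotlib 3.10.9 were used for tables and figures.

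The members and the gene lists were chosen with earlier results of these data known. Named genes were the members, every called gene of the shorter lists, up to 6 called genes with the smallest p of the longer lists (other targets, NRF2, cytochrome P450), defining genes not called, and the 5 nearest profiles to AHR and to the member with the largest difference (mean of at least 5 TPM). HSP90AB1, SLC7A5, SLC3A2 and TDO2 were named after their values were seen. Some genes that this rule names are not reported here, though list counts include them. Alternatives were another pseudocount, filter, scaling and gene set, a replicate block, and leaving out each library.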

Additional observations from a re-analysis of the deposited data

How the results depend on the processing

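The members were chosen on these values, and most alternatives cannot make separated groups overlap, so their separation says nothing about stability. Over 11 alternatives their log2 differences ranged from 0.83 to 0.98 for AHR, 0.90 to 1.23 for AHRR, 0.18 to 0.28 for ARNT, 2.24 to 2.34 for CYP1A1, 0.86 to 0.95 for TIPARP and 0.64 to 0.85 for NQO1. With 1 library left out, genes called higher numbered 312 to 723 (913 with all 4) and genes called lower 149 to 318 (359). The counts of 313 and 312 higher came without sh-ZNF217 replicate 1 and 2, and fits with 3 libraries assume that the lone sample varies like the other group. Pathway genes called higher numbered 13 to 21 (23 with all 4) and lower 0 to 2 (1 with all 4). The lower count was 2 with a minimum of 5 TPM, 3 with median-of-ratios scaling, 0 without mitochondrially encoded genes and 2 when protein-coding genes were kept alone. KYNU lost its call without a filter (adjusted p = 0.0504). The cause of these shifts was not tested. Of called genes 71.8% were higher, against 64.9% with median-of-ratios scaling and 78.0% without mitochondrially encoded genes. Replicate numbers did not pair the samples (correlation of deviations -0.00534). With a replicate block, 749 genes were called higher and 300 lower, pathway counts were 23 and 1, and PTGS2 lost its call (adjusted p = 0.0675). TPM keeps no depth, so counting error is unknown.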

Other observations

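Genes within 100 kb of the 6 members were examined after the members' values were seen. Of 32 such genes with values, 23 were tested. Of the 23, 1 rose and 0 fell, beside 6.26% and 2.46% of all tested genes, and their median log2 fold change was 0.03 against 0.02. The gene that rose was CTSS, the lysosomal protease cathepsin S, beside ARNT. It stood at 80.4 and 87.1 TPM in NC and at 167 and 167 TPM in the sh-ZNF217-labelled libraries (log2 fold change 0.99, limma adjusted p = 0.00203), while ARNT had a log2 difference of 0.23.

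Of 727 protein-coding genes called higher with a start site, 67.3% held GCGTG in the 1000 bases upstream, against 80.6% of all 10896 tested protein-coding genes. For TNGCGTG the shares were 17.9% and 21.7%, and for TGACNNNGC 35.1% and 34%. These shares are descriptions and were not tested.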
